A study of Mus musculus with 6 samples.

Results

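The cytosolic ribosomal protein genes were followed as a group in 3T3-L1 cells, a mouse embryonic fibroblast line that turns into fat cells when given the right hormones. Members were all genes whose symbol begins with Rpl or Rps and a number, together with Rplp0, Rplp1, Rplp2 and Rpsa, without pseudogenes and without the kinases named after Rps6. The rule found 63 members among 19938 genes measured by a probe set with 1 symbol. Of these, 54 encode proteins of the cytosolic ribosome, 33 of the large 60S subunit and 21 of the small 40S subunit. Another 7 are paralogs or like genes (Rpl3l, Rpl7l1, Rpl10l, Rpl32l, Rpl39l, Rps4l and Rps27l), and 2 take their name from a ribosomal protein without being one (Rps19bp1 and Rps23rg1). The rule used names only and no measured value.

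Expression was measured once in each of 6 conditions, on 6 whole-transcript arrays. The adipocyte arrays came from cells induced for 3 days in 10% fetal bovine serum with dexamethasone at 1 µmol/l, insulin at 1 µg/ml and IBMX at 115 µg/ml, and then fed insulin medium for 3 days. The cells received 0.5 mM adenine, 0.5 mM AICAR or neither during the induction days only. The fibroblast arrays came from undifferentiated cells in 10% calf serum, exposed for 3 days to 0.5 mM adenine, 0.5 mM AICAR or neither. Adenine is a free purine base, and AICAR is a ribonucleoside whose phosphorylated form activates the AMP-activated protein kinase. All 6 cultures are of 1 cell line. State (adipocyte or fibroblast) goes together with serum, the induction drugs and the 3 insulin days, during which the compounds were absent. None of these can be told apart from state. With 1 array per condition, a difference between 2 arrays has no replicate check and no p-value. Array values show a gene's level relative to the whole array, so less RNA per cell and fewer cells of a kind cannot be told apart.

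Each cytosolic ribosome holds 1 copy of most of these proteins, and cells make them in matched amounts. Their mRNAs are among the most abundant in a growing cell. Most of them begin with a cytosine followed by a run of pyrimidines, the 5′ terminal oligopyrimidine or TOP motif, through which the kinase complex mTORC1 and the RNA-binding protein Larp1 adjust their translation and stability. AMP-activated protein kinase is a known inhibitor of mTORC1. Arrays such as these measure the mRNA and not its translation.

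The sequence around an annotated start site is shown for some of the members named in the results below, since the TOP motif lies there. RefSeq promoter sequences on GRCm38.p6 were at hand for 51 of the 63 members. Each line runs 5′ to 3′ on the gene's strand from 30 bases before the annotated start to 15 bases from it. Capitals mark an unbroken run of at least 8 C or T that covers the start. The first 8 hold such a run.
Rps6 (chr4:86857353-86857397, minus strand): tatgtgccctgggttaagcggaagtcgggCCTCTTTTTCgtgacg
Rplp2 (chr7:141447621-141447665, plus strand): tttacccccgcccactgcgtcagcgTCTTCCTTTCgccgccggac
Rpl7a (chr2:26910777-26910821, plus strand): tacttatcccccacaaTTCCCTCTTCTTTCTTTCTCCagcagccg
Rpl34 (chr3:130730323-130730367, minus strand): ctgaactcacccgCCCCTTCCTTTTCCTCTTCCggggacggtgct
Rps10 (chr17:27635230-27635274, minus strand): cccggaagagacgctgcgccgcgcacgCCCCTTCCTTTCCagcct
Rpl28 (chr7:4792935-4792979, plus strand): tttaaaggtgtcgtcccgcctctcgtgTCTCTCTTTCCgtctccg
Rpl38 (chr11:114668550-114668594, plus strand): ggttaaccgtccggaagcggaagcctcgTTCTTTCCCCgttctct
Rps15a (chr7:118116133-118116177, minus strand): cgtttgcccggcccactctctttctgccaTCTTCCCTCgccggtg
The next 5 have no such run over the annotated start.
Rplp0 (chr5:115559437-115559481, plus strand): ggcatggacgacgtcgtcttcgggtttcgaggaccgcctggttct
Rpsa (chr9:120127736-120127780, plus strand): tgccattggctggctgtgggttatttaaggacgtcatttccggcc
Rpl12 (chr2:32961682-32961726, plus strand): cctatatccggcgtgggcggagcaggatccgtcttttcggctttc
Rpl41 (chr10:128549154-128549198, minus strand): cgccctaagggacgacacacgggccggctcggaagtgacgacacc
Rps28 (chr17:33824548-33824592, minus strand): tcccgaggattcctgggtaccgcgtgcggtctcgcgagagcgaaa

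A run of this kind covered an annotated start of 12 of 43 core members with a sequence (27.9%). Where a gene has several annotated starts, as Rpl34 with 2, the longest run over them counted. The share was 4.81% among 8020 other tested genes (386 genes) and 1.49% among 67 mitochondrial ribosomal protein genes (1 gene). The longest run in a member, in Rpl7a, was 21 bases. Of the 12 runs in core members, 8 have a C at the annotated start, and a run may lie partly before it. The letters CCGGAAG, as bound by ETS factors, were found on either strand in the 300 bases from 250 before the start in 17 of the 43 core members (39.5%), in 21.5% of the other tested genes and in 35.8% of the mitochondrial ribosomal protein genes. The YY1 letters AAGATGG were found in 4 of the 43 (9.30%) and in 8.79% of the other tested genes. These matches describe the letters of the windows searched and say nothing of binding, and an annotated start can lie some bases from the start a cell uses.

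The members were bright on the arrays and nearly level over the 6 conditions. A gene counted as tested where its mean log2 level over the arrays reached 5.87, the median of all genes, and 59 of the 63 members were among the 9969 tested. Of these, 45 lay in the brightest 10% of genes, which starts at 9.56. The highest mean levels belonged to Rpl21 (12.76), Rpl28 (12.67), Rpl10 (12.55), Rpl10a (12.52) and Rplp1 (12.50). The 4 members under the floor were Rpl39l at 2.67, Rpl3l at 4.02, Rpl10l at 4.80 and Rps23rg1 at 5.29. Rpl3l replaces Rpl3 in heart and skeletal muscle, and Rpl10l and Rpl39l work in the male germ line. Just inside the floor stood Rps4l at 5.98 and Rplp2 at 6.20.

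Over the 6 arrays the median SD of the members was 0.13 on the log2 scale. It was 0.25 over all tested genes and 0.27 over the 952 other genes of the brightest 10%, whose median level of 10.16 lies under the 11.52 of the members. Between levels of 12 and 13, where 18 members lie, the median SD was 0.104 for the members and 0.158 for 25 other genes. Of the bands 1 log2 unit wide from 6 to 13, only that from 6 to 7 had the opposite order. There the median SD was 0.337 for 2 members and 0.227 for 2572 other genes. The SD of 56 of the 59 members lay under the median of all tested genes. Mitochondrial ribosomal proteins, which build the separate ribosome of that organelle, had a median SD of 0.33 over 76 genes. Every tested member stayed within 1 log2 unit over the 6 arrays, with a widest range of 0.87, as did 73.0% of all tested genes.

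**Figure D1:**
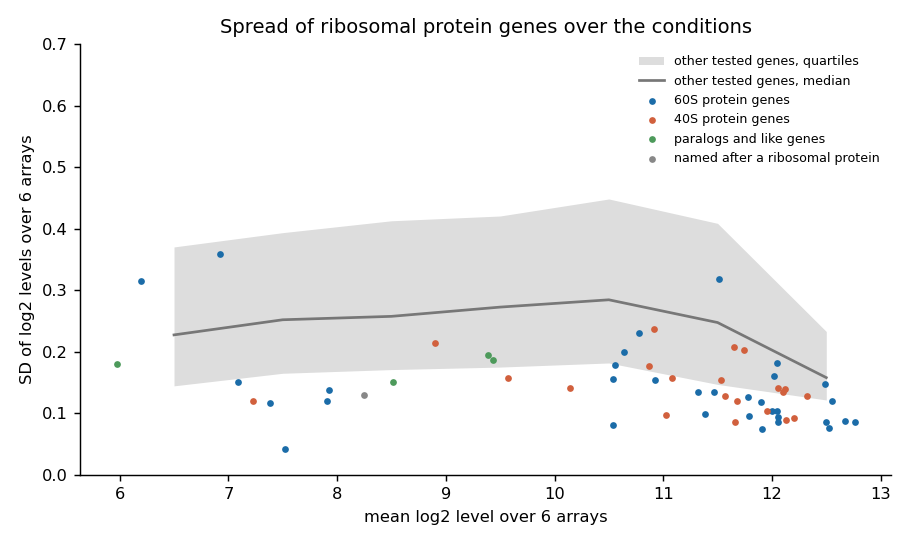
SD of log2 levels over the 6 arrays (vertical axis) against the mean log2 level (horizontal axis) for 59 ribosomal protein genes, coloured by subunit or kind. The grey line and band give the median and quartiles of the other tested genes by level, and 56 of the 59 points lie under the median SD of all tested genes, 0.25, with Rplp2, Rpl12 and Rpl41 above it.

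Rpl22, a 60S protein, was the most level member, with an SD of 0.042. Its log2 levels were 7.51, 7.49 and 7.55 in adipocytes with adenine, with AICAR and in control medium, against 7.47, 7.54 and 7.58 in fibroblasts in the same order of media. Next came Rpl6, Rpl10a, Rpl39l (under the floor) and Rpl29, with SDs between 0.07 and 0.08. The widest spreads were those of Rpl12 (0.36), Rpl41 (0.32), Rplp2 (0.31), Rps14 (0.24) and Rpl36 (0.23).

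No member differed by 2-fold or more in any of the 9 pairwise comparisons. Among all tested genes the share at or past 2-fold was 7.15% between states in control medium, 15.2% between states with adenine and 10.5% between states with AICAR. It was 0.13% for adenine against control and 5.39% for AICAR against control in fibroblasts, and 3.64% for adenine and 0.993% for AICAR in adipocytes. Between AICAR and adenine it was 5.49% in fibroblasts and 3.42% in adipocytes. Smaller differences were therefore counted at 1.2-fold, or 0.26 on the log2 scale.

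The members as a group stood lowest on the fibroblast array with adenine and highest on the fibroblast array with AICAR. Relative to each gene's own mean, the median member was at -0.04, 0.02 and -0.05 in adipocytes with adenine, with AICAR and in control medium. In fibroblasts it was at -0.12, 0.14 and 0.06 in the same order. The fibroblast AICAR array held the highest level of 32 of the 59 members, and the fibroblast adenine array held the lowest level of 29. All tested genes had array medians between -0.01 and 0.02 on the same scale.

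**Figure D2:**
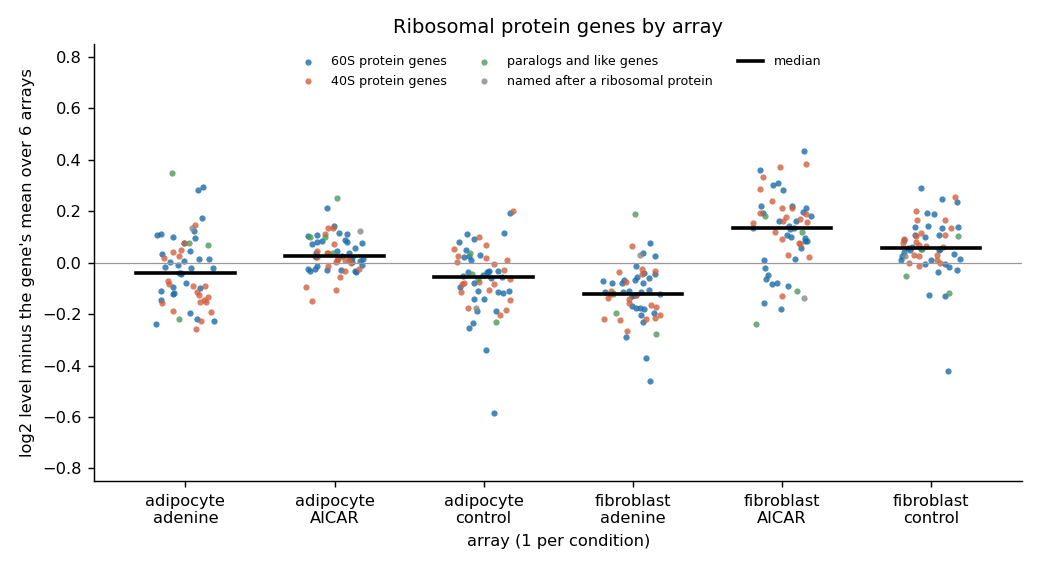
Log2 level minus the gene's own mean over 6 arrays (vertical axis) for the 59 tested members on each array (horizontal axis), with the median as a bar. The fibroblast adenine array has the lowest median, -0.12, and the fibroblast AICAR array the highest, 0.14.

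Most members were lower in adenine-treated than in control fibroblasts. Of the 59 members, 55 lay below 0 in adenine-treated against control fibroblasts, where 52.1% of all tested genes did. The median difference was -0.18, a ratio of 0.880, with quartiles of -0.25 and -0.11, against a median of -0.01 over all tested genes and -0.01 over the other genes of the brightest 10%. At 1.2-fold, 15 members were lower (25.4%) and 0 were higher, against 6.88% and 6% of all tested genes. All 21 core members of the 40S subunit and 31 of the 33 of the 60S subunit lay below 0. With quantile normalization over the arrays the median was -0.12 and 51 members lay below 0.

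The lowest values in this comparison belonged to Rpl36, Rps14 and Rps19. Rpl36, a 60S protein, had log2 levels of 10.60 with adenine and 11.01 in control medium, a difference of -0.41. Rps14, a 40S protein at the platform of the small subunit, had 10.71 with adenine and 11.12 in control medium, a difference of -0.40. Rps19, the 40S protein most often mutated in Diamond-Blackfan anaemia, had 8.63 with adenine, a difference of -0.37 from its level in control medium. The 4 members above 0 were Rpl30 (0.09), Rps27l (0.09), Rpl14 (0.05) and Rps19bp1 (0.00), and the last 3 of these encode a p53-inducible paralog of Rps27, a 60S protein and a nucleolar partner of Rps19.

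The members that mark the ribosomal stalk and the kinase pathway followed the majority. Rplp0, the base of the stalk that recruits elongation factors, had log2 levels of 12.20 with adenine and 12.53 in control medium (-0.34). Its partner Rplp1 had 12.43 with adenine and 12.49 in control medium (-0.06), and Rplp2 had 5.83 with adenine and 6.16 in control medium (-0.33), close to the floor. Rps6, the substrate of the S6 kinases downstream of mTORC1, had 11.98 with adenine and 12.21 in control medium (-0.22). Rpsa, which also serves as a laminin receptor, had 11.46 with adenine and 11.67 in control medium (-0.21).

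Some probe sets of a gene gave identical values, as those of Rpl41 did, so probe sets of a gene are not counted as separate measurements. Their overlap in sequence was not examined. A total of 39 members have more than 1 probe set, with 219 probe sets over all members and up to 14 for Rps12. In adenine-treated against control fibroblasts all 155 further probe sets past the floor, from 38 genes, lay below 0, with a median of -0.22. A probe set here can also record processed pseudogene copies of a ribosomal protein gene, of which the genome holds many.

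AICAR in fibroblasts gave a smaller median with more spread. Of the 59 members, 39 lay above 0 in AICAR-treated against control fibroblasts, where 47.5% of all tested genes did. The median was 0.08, against -0.03 over all tested genes and -0.14 over the other genes of the brightest 10%, and it was 0.12 with quantile normalization. At 1.2-fold 4 members were higher and 3 lower, against 22.3% and 29.4% of all tested genes. Both counts correspond to smaller shares than in the background.

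Rpl12 stood out with the largest difference of the comparison. This 60S protein of the stalk base had log2 levels of 7.28 with AICAR and 6.50 in control medium, a difference of 0.78. Rplp2 followed, with 6.63 with AICAR and 6.16 in control medium (0.47), and then Rpl30, with 7.37 and 6.96 (0.41) in the same order. All 3 are measured by 1 probe set each, at levels in the lower part of the members' range. Lowest were Rps27l, with 9.19 with AICAR and 9.54 in control medium (-0.34), then Rpl7a (-0.29) and Rpl34 (-0.28).

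**Figure D3:**
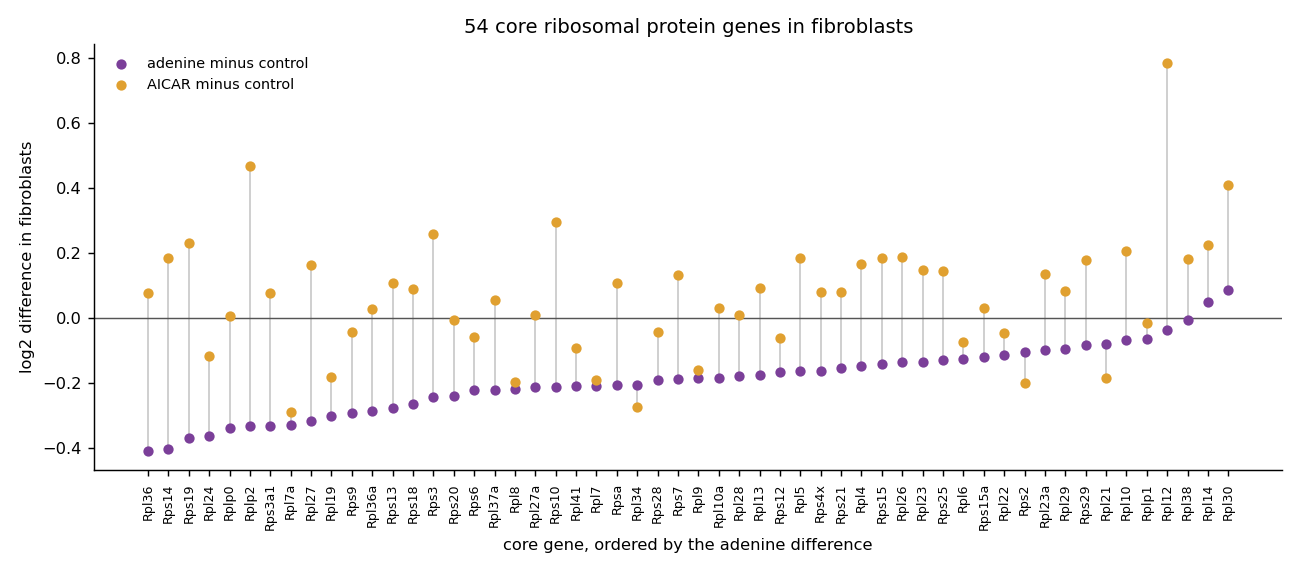
Log2 difference from control fibroblasts (vertical axis) for 54 core ribosomal protein genes (horizontal axis), ordered by the adenine difference. Adenine points lie below 0 for 52 genes, and AICAR points lie above 0 for 36 genes.

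The direct comparison of the compounds in fibroblasts, at the same dose and time, showed the largest group difference of the 9 comparisons. Of the 59 members, 54 lay above 0 in AICAR-treated against adenine-treated fibroblasts, where 48.9% of all tested genes did. The median was 0.25, a ratio of 1.19, against -0.01 over all tested genes and -0.14 over the other genes of the brightest 10%. At 1.2-fold 27 members were higher (45.8%) and 1 was lower, against 23.1% and 28.9% of all tested genes. The median was 0.21 with quantile normalization and 0.23 without the filter on dim genes.

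The members at the top of this comparison were Rpl12, with 7.28 with AICAR and 6.46 with adenine (0.82), Rplp2, with 6.63 and 5.83 (0.80), and Rps19, with 9.23 and 8.63 (0.60). Rps14 had 11.30 with AICAR and 10.71 with adenine (0.59), so it had a higher level than in control medium on the AICAR array and a lower one on the adenine array. Rpl32l, a like gene of the 60S protein Rpl32, had 8.64 with AICAR and 8.24 with adenine (0.40). Rplp0 differed by 0.34, Rpsa by 0.31, Rps6 by 0.16 and Rplp1 by 0.05. The 5 members below 0 were Rps27l (-0.43), Rps19bp1 (-0.16), Rpl21 (-0.10), Rps2 (-0.09) and Rpl34 (-0.07). The 2 lowest are the p53-inducible paralog and the Rps19 partner, neither of them a core protein.

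In adipocytes the compounds had been removed 3 days before harvest. For adenine-treated against control adipocytes the median was 0.03, with 32 of the 59 members above 0, where 52.5% of all tested genes were. At 1.2-fold 8 members were higher and 2 lower, against 23.9% and 20% of all tested genes. The sign of the median depended on the scaling. It was -0.05 with quantile normalization and 0.12 after each array's median was subtracted, which by itself moves the median of all tested genes to 0.11. Rpl41 (0.47), Rplp2 (0.44) and Rps2 (0.33) were highest, and Rps15a (-0.33), Rpl13 (-0.31) and Rps20 (-0.26) were lowest.

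For AICAR-treated against control adipocytes the median was 0.08, with 48 of the 59 members above 0, where 47.4% of all tested genes were. At 1.2-fold 8 members were higher and 0 lower, against 10.3% and 11.8% of all tested genes. With quantile normalization the median was 0.02 and 32 members lay above 0, and after subtraction of array medians the median was 0.13. Rpl41 had 11.66 with AICAR and 10.93 in control medium (0.73), Rplp2 had 6.41 and 5.86 (0.55), and Rps27l had 9.53 and 9.20 (0.33). Lowest were Rps19 (-0.22), Rps15a (-0.18) and Rpl12 (-0.16).

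Between the compounds in adipocytes the median was 0.06 for AICAR against adenine, with 41 of the 59 members above 0, where 45.2% of all tested genes were. It was 0.02 after subtraction of array medians. At 1.2-fold 3 members were higher and 1 lower, against 15.6% and 20.6% of all tested genes. Rps4l had 6.23 with AICAR and 5.76 with adenine (0.47), next to the floor, followed by Rpl38 (0.30) and Rps20 (0.27). Rpl7l1, a relative of Rpl7, had 9.43 with AICAR and 9.74 with adenine (-0.31), the lowest difference, ahead of Rpl12 (-0.26) and Rpl9 (-0.17).

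**Figure D4:**
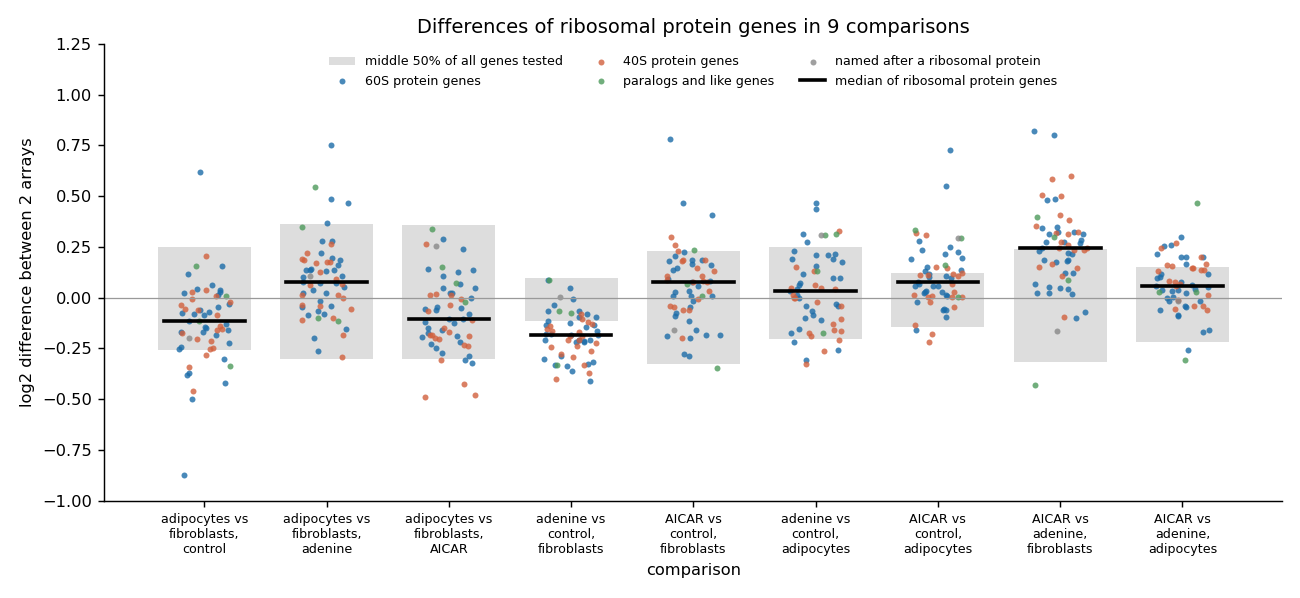
Log2 difference between 2 arrays (vertical axis) for 59 ribosomal protein genes in 9 comparisons (horizontal axis). Black bars give their medians and grey boxes the middle 50% of all tested genes, and the medians of -0.18 for adenine in fibroblasts and 0.25 for AICAR against adenine in fibroblasts lie outside the boxes.

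The difference between cell states was small for most members and depended on the medium. Where both states had received a compound, the adipocytes had spent 3 further days in insulin medium without it. In control medium 44 of the 59 members lay below 0 in adipocytes against fibroblasts, where 48.1% of all tested genes did. The median was -0.12, and -0.02 with quantile normalization. At 1.2-fold 10 members were lower and 1 higher, against 24.7% and 24% of all tested genes. With adenine in both states 40 members lay above 0 (53.2% of all tested genes) with a median of 0.08, and 0.14 after subtraction of array medians. At 1.2-fold 8 were higher and 2 lower, against 31.2% and 27.1%. With AICAR in both states 40 lay below 0 (49.8% of all tested genes) with a median of -0.11, and -0.06 after subtraction of array medians. At 1.2-fold 8 were lower and 3 higher, against 27.4% and 30.5%. The highest with adenine in both states were Rpl12 (0.75), Rpl7l1 (0.54) and Rpl9 (0.48), and the lowest were Rps28 (-0.29), Rpl38 (-0.26) and Rpl41 (-0.20). With AICAR in both states Rps27l (0.34), Rpl9 (0.29) and Rps2 (0.27) were highest, and Rps14 (-0.49), Rps19 (-0.48) and Rps10 (-0.43) were lowest.

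The state difference was tested over the 3 media in an additive model with limma, in which the residual holds departures from additivity and not the spread between cultures. None of the 59 members passed an adjusted p of 0.05, against 10.6% of all tested genes, and 1 member had an unadjusted p under 0.05, against 29.5% of all tested genes. That member was Rps28, a 40S protein, with a state coefficient of -0.35 ± 0.14 (SE) and an adjusted p of 0.164 in limma. The median coefficient of the members was -0.04, and the median size of a member's coefficient was 0.08, against 0.26 over all tested genes. Without 1 pair of arrays or under another setting the lowest adjusted p of a member in limma lay between 0.0655 and 0.405.

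Rps28 had log2 levels of 11.42, 11.55 and 11.44 in adipocytes with adenine, with AICAR and in control medium, against 11.71, 11.86 and 11.90 in fibroblasts in the same order. It was the only tested member whose 3 adipocyte values all lay below its 3 fibroblast values, which held for 19.9% of all tested genes. The opposite order held for 3 members, Rpl6, Rpl7l1 and Rpl9, and for 22.1% of all tested genes. Rpl9, a 60S protein, had 12.32, 12.15 and 12.05 in adipocytes against 11.84, 11.86 and 12.02 in fibroblasts, with a coefficient of 0.27 ± 0.16 (SE) and an adjusted p of 0.318 in limma. Rpl7l1 had 9.74, 9.43 and 9.42 in adipocytes against 9.19, 9.28 and 9.27 in fibroblasts, with a coefficient of 0.28 ± 0.16 (SE) and an adjusted p of 0.292 in limma. Rpl6 kept to a narrow band, with 11.95, 11.98 and 11.95 in adipocytes against 11.79, 11.84 and 11.92 in fibroblasts.

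Rpl41, the smallest protein of the 60S subunit, had the largest state difference in control medium. Its log2 levels were 11.40, 11.66 and 10.93 in adipocytes with adenine, with AICAR and in control medium, against 11.59, 11.71 and 11.80 in fibroblasts in the same order. The low value was that of the control adipocytes alone, so the state difference was -0.87 in control medium, -0.20 with adenine and -0.05 with AICAR. Its coefficient of -0.38 ± 0.20 (SE) had an adjusted p of 0.280 in limma. The 3 probe sets of Rpl41 gave identical differences and do not count as separate evidence. Rpl24 (-0.50) and Rps28 (-0.46) came next in control medium.

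Rpl12 ran the other way between media. It had 7.22, 6.96 and 7.12 in adipocytes against 6.46, 7.28 and 6.50 in fibroblasts, so only the fibroblast AICAR array was raised among the fibroblasts. Its state difference was 0.62 in control medium, 0.75 with adenine and -0.32 with AICAR. Rps27l had 9.51, 9.53 and 9.20 in adipocytes against 9.62, 9.19 and 9.54 in fibroblasts, with low values in control adipocytes and AICAR-treated fibroblasts. Its state difference was -0.34 in control medium, -0.12 with adenine and 0.34 with AICAR. Rplp2 had 6.29, 6.41 and 5.86 in adipocytes against 5.83, 6.63 and 6.16 in fibroblasts, and the states overlapped.

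The compound terms of the same model gave 0 calls of 9969 genes for adenine, for AICAR and for AICAR against adenine, and percent called was 0 in each. No member had an unadjusted p under 0.05 in these terms with limma, against 0.622%, 2.27% and 4.25% of all tested genes in the same order. These terms average over the states, so a response that differs between fibroblasts and adipocytes enters the residual.

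Other genes of translation were described from lists. Fau, whose product gives the 40S protein eS30, had 11.64, 11.63 and 11.69 in adipocytes with adenine, with AICAR and in control medium, against 11.59, 11.87 and 11.83 in fibroblasts, with a difference of -0.24 for adenine in fibroblasts. A list of genes with TOP mRNAs, mostly translation factors, had 12 tested genes. All 12 had negative values (median -0.12) for adenine in fibroblasts, where 52.1% of all tested genes did. For AICAR in fibroblasts 11 of the 12 lay above 0, with a median of 0.19, where 47.5% of all tested genes did. With quantile normalization these medians were -0.06 and 0.27, and no median of the other lists that is printed here changed sign under it or with array medians subtracted. The elongation factor Eef1a1 differed by -0.06 for adenine and 0.10 for AICAR, and Eef2 by -0.01 and 0.27. The factor Eif4b (0.38) and the histone chaperone Nap1l1 (0.81) were highest for AICAR in fibroblasts, and Eef1d (-0.35) was lowest. The 19 other initiation factors had medians of -0.05 for adenine and 0.04 for AICAR in fibroblasts, and the second was 0.13 with quantile normalization. In the limma state model 0 of the 12 and 0 of the 19 passed, where 10.6% of all tested genes did.

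Ribosome biogenesis factors, which build the ribosome in the nucleolus, had positive medians between states. All 20 tested lay above 0 in adipocytes against fibroblasts in control medium, where 48.1% of all tested genes lay below 0. The median was 0.50, against 0.02 over all tested genes and -0.12 for the ribosomal proteins. With adenine the median state difference was 0.69, and with AICAR it was 0.23. For AICAR in fibroblasts 17 of the 20 lay above 0, with a median of 0.35, where 47.5% of all tested genes did. Myc, the transcription factor that drives ribosome production, had 9.71, 9.83 and 9.43 in adipocytes with adenine, with AICAR and in control medium, against 7.58, 9.80 and 8.06 in fibroblasts. The subunit Polr1a of RNA polymerase I had a difference of 0.75 for AICAR in fibroblasts, and Myc one of 1.74. In the state model 1 of the 20 rose, where 5.22% of all tested genes did. It was the pseudouridine synthase Dkc1, which rose by 0.92 ± 0.18 (SE) with an adjusted p of 0.037 in limma.

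The mitochondrial ribosomal proteins also had values unlike those of the cytosolic ones. Their median state difference was 0.11 in control medium, 0.64 with adenine and 0.38 with AICAR. For adenine in adipocytes 75 of the 76 tested lay above 0, with a median of 0.44, where 52.5% of all tested genes did. For AICAR against adenine in adipocytes 74 of the 76 lay below 0, with a median of -0.35. Of all tested genes 45.2% lay above 0 there. In the state model, which called 5.22% of all tested genes higher and 5.37% lower in adipocytes, 7 of the 76 rose and 0 fell, led by Mrps27 (1.17 ± 0.15, SE, adjusted p of 0.014 in limma) and Mrpl12 (1.10 ± 0.20, SE, adjusted p of 0.031 in limma). The difference between the 2 kinds of ribosomal protein was not tested.

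**Figure D5:**
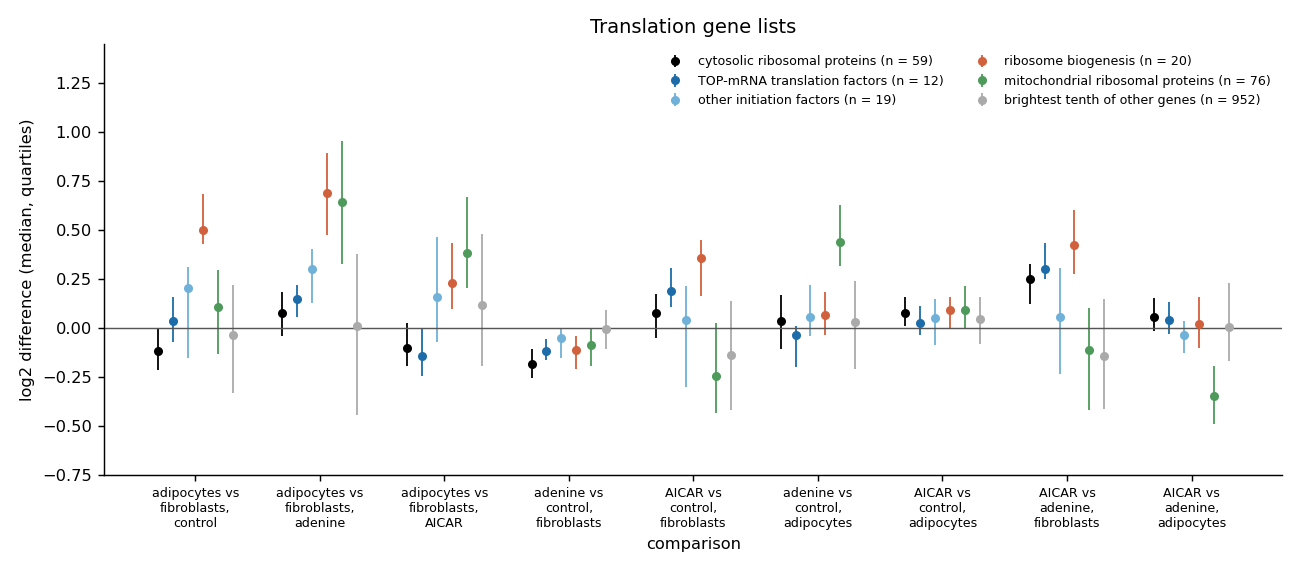
Median log2 difference with quartiles (vertical axis) for 6 gene lists in 9 comparisons (horizontal axis). Ribosome biogenesis factors (0.50 in control medium) and mitochondrial ribosomal proteins (0.64 with adenine) lie above 0 between states, where cytosolic ribosomal proteins lie at -0.12 and 0.08.

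The list for mTORC1 and Larp1 mixes parts of the axis with inhibitors of it, so its median gives no direction of the axis. That median was -0.23 over 16 tested genes for AICAR in fibroblasts and 0.04 for adenine. The lowest genes of the list with AICAR were Sesn2 (-1.87) and Sesn3 (-1.76), both inhibitors of mTORC1 activation by amino acids. The highest were Larp4 (0.69) and Tsc1 (0.43). Mtor had 8.27, 7.90 and 8.26 in adipocytes with adenine, with AICAR and in control medium, against 7.55, 7.63 and 7.50 in fibroblasts. Larp1 had 9.67, 9.40 and 9.35 against 9.20, 9.47 and 9.13 in the same order. In the state model 1 of the 16 rose, where 5.22% of all tested genes did. It was the mTORC1 inhibitor Ddit4, which rose by 1.11 ± 0.20 (SE) with an adjusted p of 0.030 in limma.

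Marker lists moved with several of these comparisons. The 6 adipocyte markers were summed per array and taken to log2. The sum stood between 13.15 and 14.44 on the adipocyte arrays and between 7.92 and 9.13 on the fibroblast arrays. All 6 markers rose in the state model, where 5.22% of all tested genes did. Within adipocytes the sum was 14.44 with adenine, 13.15 with AICAR and 13.32 in control medium. Within fibroblasts it was 7.92 with adenine, 9.13 with AICAR and 8.14 in control medium. Fabp4, the brightest of the 6 on the fibroblast arrays, had 6.42, 8.62 and 6.97 there in the same order and makes up most of that change. The median difference of the 6 markers for AICAR against control in fibroblasts was 0.17. The 5 fibroblast markers summed to between 11.27 and 12.85 on the adipocyte arrays and between 12.64 and 13.54 on the fibroblast arrays, with the lowest value in adipocytes with adenine. On the fibroblast arrays their sum was 13.54 with adenine, 12.64 with AICAR and 13.47 in control medium. Of the 5 leukocyte markers 1 passed the floor, Lyz2, and of the 3 muscle markers Des did, while 0 of 3 endothelial and 0 of 3 epithelial markers passed. Lyz2 fell by 2.84 on the log2 scale in the state model (adjusted p of 0.0283 in limma). The model called 0 of the 5 fibroblast markers and 0 of the 1 tested muscle marker, against 10.6% of all tested genes. The part of these shifts in the differences of the ribosomal proteins was not tested.

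Core members were also compared by the presence of a pyrimidine run over an annotated start. For adenine in fibroblasts the 12 core members with a run had a median of -0.21 and the 31 without one a median of -0.18. For AICAR against adenine in fibroblasts the medians were 0.19 with a run and 0.28 without. Between states in control medium they were -0.16 with a run and -0.06 without. For AICAR against control they were 0.14 with a run and 0.03 without in adipocytes, and 0.02 with a run and 0.08 without in fibroblasts. No test was made of these differences.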

How the data were processed

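The table deposited by the authors gives 6 arrays in log2 units, with 35556 probe sets each. Per the submitters' processing notes, the software was Transcriptome Analysis Console 1.0.0.234 and the build mm10. How background was corrected, arrays normalized and probes summarised is not given in the sources used here. Array medians lay between 5.41 and 5.49, and values were used as deposited. Groups came from the labels, with 1 array each, so the number of arrays limits the precision.

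Probe sets with 1 symbol in the platform annotation were kept (21789), those with several (1621) or none (12146) were not, and the probe set with the highest mean stood for a gene. Genes under the median of gene means (log2 5.87) were left out. All 63 members matched RefSeq symbols (GRCm38.p6). Arrays were subtracted in 9 pairs. limma 3.58.1 in R 4.3.3 fitted state and medium to all 9969 genes, with 2 residual and 3.64 prior degrees of freedom and Benjamini-Hochberg adjustment at 0.05, and the step was tested on simulated data.

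Named members were the stalk genes, Rpsa, Rps6, the paralogs, the 3 highest and 3 lowest of each comparison, the 5 extremes of level, SD and state coefficient, and those around the floor. Other genes were the 2 extremes of a list and set names such as Myc, of which some are printed. The members and the 13 lists were chosen with earlier results of these data known. Alternatives were 2 scalings, 2 filters, the mean over probe sets, core members only and, for the model, a trended prior, no medium term and leaving out 1 pair of arrays.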

Additional observations from a re-analysis of the deposited data

Results flagged for a closer look

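Several differences had opposite signs in the groups set side by side, and with 1 array per condition none of these differences between groups was tested. The adipocytes had also been without the compounds for 3 days, which cannot be told apart from state. The median of the 59 members for adenine against control was -0.18 in fibroblasts and 0.034 in adipocytes. The median for adipocytes against fibroblasts was -0.12 in control medium, 0.077 with adenine and -0.11 with AICAR.

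Rplp2 differed by -0.33 in fibroblasts and 0.44 in adipocytes for adenine against control. Its difference between adipocytes and fibroblasts was 0.47 with adenine and -0.30 in control medium. Rps27l differed by -0.34 in fibroblasts and 0.33 in adipocytes for AICAR against control, and between adipocytes and fibroblasts by 0.34 with AICAR and -0.34 in control medium. Rpl12 differed between adipocytes and fibroblasts by 0.75 with adenine, -0.32 with AICAR and 0.62 in control medium. The comparisons of 1 gene share control arrays, so its values are not independent of each other.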

How the results depend on the processing

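Of 54 recomputed group medians 1 changed sign, adenine in adipocytes, which was 0.034 as reported and -0.048 with quantile normalization, and 53 moved by less than 0.11, the median residual SD of the members. That bound exceeds most of the medians, so it says little of their stability. Medians that moved by over 1.5 times without a change of sign are -0.024 between states in control medium, -0.116 for adenine and 0.123 for AICAR in fibroblasts, 0.020 for AICAR in adipocytes and 0.050 between states with adenine, all with quantile normalization. With array medians subtracted they are 0.142 and -0.062 between states with adenine and AICAR, 0.123 and 0.133 for adenine and AICAR in adipocytes and 0.024 between the compounds in adipocytes. For adenine in adipocytes the median is 0.013 with core members and 0.015 without the filter, and without the filter it is -0.064 between states with AICAR. Of 216 recomputed counts 194 stayed within 1.5 times. Counts at 1.2-fold that moved more are given here as alternative against main value. With quantile normalization they were 13 against 8 lower between states with AICAR, 7 against 4 higher and 1 against 3 lower for AICAR in fibroblasts, 2 against 8 higher and 7 against 2 lower for adenine in adipocytes, 5 against 8 higher for AICAR in adipocytes, and 0 against 1 lower for AICAR against adenine in adipocytes. With array medians subtracted they were 0 against 2 lower between states with adenine, 5 against 3 higher and 5 against 8 lower between states with AICAR, 15 against 8 higher and 0 against 2 lower for adenine in adipocytes, and 2 against 1 lower for AICAR against adenine in adipocytes. Without the filter (63 members) it was 2 against 1 higher between states in control medium. With the floor at the 75th percentile (52 members) they were 0 against 1 higher between states in control medium, 1 against 4 higher for AICAR in fibroblasts and 1 against 2 lower for adenine in adipocytes. With the mean over probe sets it was 1 against 2 lower between states with adenine. With 54 core members they were 5 against 8 higher for both adenine and AICAR in adipocytes and 0 against 1 lower for AICAR against adenine in fibroblasts and in adipocytes. The cause was not tested, beyond the smaller number of members. The model called 0 members in all 28 alternatives with limma. Many of these are compound terms, which called 0 of all 9969 genes in the main fit, so their counts say nothing of the members. The state term called 10.6% of all tested genes in the main fit, and its shares under the alternatives are not printed here. Arrays are paired by medium in the state model, and without that pairing (no medium block) it also called 0 members. The arrays carry no replicate numbers to pair. The number of arrays, with no measured background, limits every value.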

Other observations

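A further 18 entries for ribosomal protein genes, all past the floor, came from probe sets that the annotation gives to several symbols. The pairs Rpl32l with Rpl32, Rpl37rt with Rpl37 and Rps27rt with Rps27 each share an entry. The rule leaves such probe sets out, so these genes are not members, apart from Rpl32l, which also has a probe set of its own. For adenine-treated against control fibroblasts 16 of the 18 lay below 0, with a median of -0.21, where 52.1% of all tested genes did. For AICAR against adenine in fibroblasts 18 of 18 lay above 0, with a median of 0.22, where 48.9% of all tested genes did. Their medians under the other scalings are not given here. The 2 above 0 for adenine were the probe sets shared by Rpl11 with Brf2 and by Rpl13a with Zfp526, each at 0.08. Rpl22l1, the paralog of Rpl22, shares its probe set with a predicted gene and was singled out after its values were seen. Its differences were -0.67 between adipocytes and fibroblasts in control medium, 0.33 with adenine and 0.21 with AICAR, where Rpl22 stayed within 0.05 of 0.

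The probe sets of the pseudogenes Rpl14-ps1 and Rps19-ps3, left out by name, had log2 levels above the floor of 5.87 on all 6 arrays. Whether this signal came from the pseudogene or from the mRNA of the parent gene was not tested. Rpl14-ps1 had log2 levels of 8.05, 8.14 and 7.79 in adipocytes with adenine, with AICAR and in control medium, against 7.93, 7.82 and 8.08 in fibroblasts. Its parent Rpl14 had 8.02, 8.02 and 7.79 against 7.83, 8.001 and 7.78 in the same order.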
